A study of Mus musculus with 6 samples.

Results

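The 39 genes described here encode the machinery of mitosis: mitotic kinases and cyclins, spindle, checkpoint, centromere and cytokinesis proteins. They were taken by gene symbol from the deposited expression tables, which list 54551 genes, and all 39 were found once in each of the 6 tables. RNA was sequenced from granulosa cells, the follicle cells that surround and nourish the oocyte, of C57BL/6 mice on postnatal day 21. Every mouse had been given 5 IU of PMSG, a hormone that makes follicles grow, for 48 h. A 6 h exposure to 5 IU of hCG, used in place of the ovulatory surge, followed. The labels give 3 libraries of WT mice (WT1 to WT3 here) and 3 of Gm12840-/- mice (KO1 to KO3). The labels do not say how the allele was made or that each library came from a separate animal, so the p-values reflect the scatter among these 6 samples, which may be technical.

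Mitosis is driven by active cyclin-dependent kinase 1 bound to A- and B-type cyclins. Cells leave it after the anaphase-promoting complex marks those cyclins and securin for destruction. Before anaphase the spindle assembles, condensins compact the chromosomes, and the checkpoint holds anaphase until all chromosomes are attached. The contractile ring divides the cell after anaphase has begun. Granulosa cells divide rapidly in growing follicles and leave the cell cycle after the ovulatory surge. Messenger RNAs of these genes normally accumulate late in the cell cycle, through promoters that carry a cell cycle homology region (CHR) and CCAAT boxes.

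The targeted gene was checked first. Gm12840 stood at 1.83, 0.566 and 0.365 FPKM (fragments scaled for gene length and library size) in WT1 to WT3. It stood at 0.426, 0.611 and 1.45 FPKM in KO1 to KO3, from 5 to 17 reads in each library. The groups overlapped, so WT-labelled and KO-labelled below refer to the labels alone, and so does any direction. Recovered depth was 16392098 to 19465847 reads per library. Granulosa genes were present in all 6 libraries, at unequal levels. Summed over 12 granulosa markers, the level was 13067, 12295 and 6955 FPKM in WT1 to WT3. It was 7037, 5146 and 10094 FPKM in KO1 to KO3, with Inha as the largest part (3973 to 10808 FPKM). Foxl2, a granulosa transcription factor, stood at 26.2 to 48.5 FPKM, and Cyp19a1, another of the 12, at 2.96 to 14.4 FPKM.

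Promoter sequences are shown because most members carry the same pair of short elements there. RefSeq promoter windows, 250 bases before to 50 bases after the start site on GRCm38.p6, were available for 32 of the 39 members. The CHR letters TTTGAA, or TTCAAA on the other strand, were present in 24 of the 32 (75.0%), where 20.2% of 27025 genes with a window held them. The CCAAT letters, or ATTGG on the other strand, were present in 26 (81.2%), against 41.1% of all genes. Both were present in 22 members (68.8%), against 7.97% of all genes, 9.68% of 31 DNA replication genes and 28.7% of 101 other mitotic genes, of which 40.6% held the CHR letters. Neither was present in Birc5, Pttg1, Nusap1 and Mad2l1. These are matches of letters, given as a description. The 250 bases before the start site of the most abundant member of 4 of the role groups below follow, with CHR and CCAAT letters in capitals.
Ccnb2: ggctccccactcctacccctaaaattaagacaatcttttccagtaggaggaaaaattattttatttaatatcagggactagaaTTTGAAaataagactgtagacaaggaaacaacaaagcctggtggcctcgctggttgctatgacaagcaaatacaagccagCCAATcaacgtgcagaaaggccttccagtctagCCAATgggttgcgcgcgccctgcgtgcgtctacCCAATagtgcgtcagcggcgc
Cdc20: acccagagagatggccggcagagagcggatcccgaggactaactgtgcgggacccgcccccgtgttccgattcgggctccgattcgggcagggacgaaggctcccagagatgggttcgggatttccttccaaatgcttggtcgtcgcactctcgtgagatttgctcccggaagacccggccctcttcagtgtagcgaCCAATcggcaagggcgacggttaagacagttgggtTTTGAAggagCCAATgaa
Top2a: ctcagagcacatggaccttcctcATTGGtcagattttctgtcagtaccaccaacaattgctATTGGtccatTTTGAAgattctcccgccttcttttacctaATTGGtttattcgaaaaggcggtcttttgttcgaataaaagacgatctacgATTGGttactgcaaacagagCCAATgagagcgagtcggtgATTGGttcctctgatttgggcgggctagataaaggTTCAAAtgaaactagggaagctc
Birc5: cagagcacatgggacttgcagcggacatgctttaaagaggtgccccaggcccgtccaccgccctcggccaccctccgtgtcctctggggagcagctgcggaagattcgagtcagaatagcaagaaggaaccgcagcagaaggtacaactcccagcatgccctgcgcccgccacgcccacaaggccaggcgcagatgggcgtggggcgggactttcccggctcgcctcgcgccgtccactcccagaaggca
They lie at chr9:70421555-70421804, chr4:118437344-118437593 and chr11:99024190-99024439 on the minus strand, and chr11:117848987-117849236 on the plus strand. In Ccnb2 the CCAAT letters begin 87, 54 and 21 bases before the start site, 33 bases apart each time, and a further TTTGAA begins 4 bases after it, outside the printed stretch. In Cdc20 the letters TTTGAA begin 18 bases before the start site, between CCAAT letters at 53 and 8 bases. Top2a holds 6 CCAAT matches and 2 CHR matches, the nearer of which begins 23 bases before the start site. Birc5 holds no match in the whole window.

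Mitosis genes were well expressed. The mean over 6 libraries was above 10 FPKM in 21 members, between 1 and 10 in 17 and under 1 in 1, Kif11. The highest mean was 54.7 FPKM, of Cdc20, and the median of the members' means was 11.9. Summed over the 39 members, the level was 527, 629 and 524 FPKM in WT1 to WT3 and 485, 516 and 526 FPKM in KO1 to KO3. The members took 0.194% to 0.276% of the reads of a library.

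The comparison the design allows is KO-labelled against WT-labelled libraries. None of the 38 members that passed the filter on low values (FPKM above 1 in at least 3 libraries) was called by limma on log2(FPKM + 1), with adjusted p-values from 0.993 to 0.999. The background was 0% of 12495 genes called, so the members' count equals that of all genes. No member had an unadjusted p under 0.05 in limma, as 0.728% of all tested genes did, and limma-voom on recovered reads called 0 members, with none at an unadjusted p under 0.05 beside 0.6% of all genes. A fit with a gene-length slope as covariate called 0 members where it called 0.008% of all genes, and had 1 member at an unadjusted p under 0.05 beside 5.02% of all genes. The log2 fold change was above 0 for 17 of the 38 and below 0 for 21, with a median of -0.01 beside -0.04 for all tested genes. The fold changes ran from -0.56 to 0.44. Their 95% intervals reached 0.47 to 1.95 to either side on the log2 scale (median 0.63). These intervals are not adjusted for the number of genes tested, so a call needed a larger difference than they reach. The smallest unadjusted p of all tested genes in limma, 7.1e-06, had an adjusted p of 0.0893. With WT3 and KO3 both left out, 13 of 38 members (34.2%) were called (6 higher, 7 lower), beside 27.6% of all tested genes, and 16 members had an unadjusted p under 0.05 in limma, beside 44.6%. That fit sets the libraries of low mitochondrial read share, described below, against those of high share, so genotype and that share cannot be told apart in it.

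**Figure D1:**
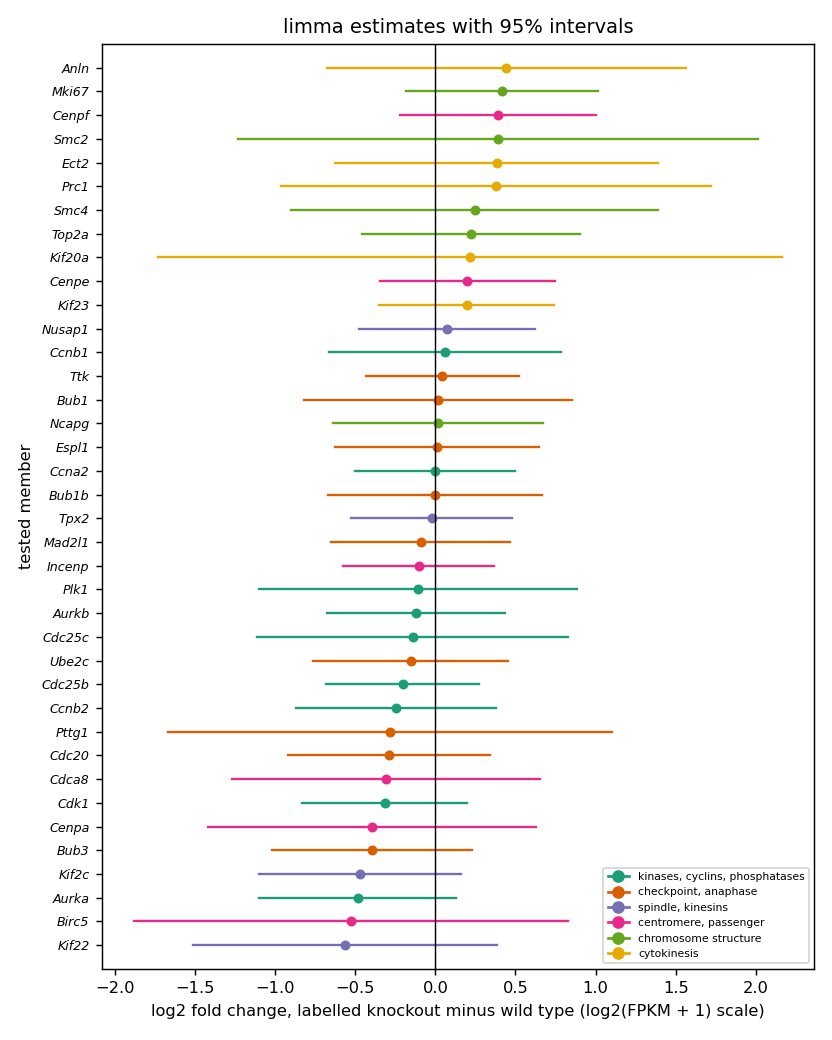
Log2 fold change of the 38 tested mitosis genes, KO-labelled minus WT-labelled, on the log2(FPKM + 1) scale (x axis), with 95% limma intervals as lines and role groups as colours. Estimates run from -0.56 for Kif22 to 0.44 for Anln, and each interval crosses 0.

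The kinases, cyclins and phosphatases that drive entry into mitosis formed the first role group. Ccnb2, a B-type cyclin and the most abundant of the 9, stood at 31.0, 30.7 and 24.2 FPKM in WT1 to WT3 and 25.5, 18.04 and 29.3 FPKM in the KO-labelled ones. Its log2 fold change was -0.25 (SE 0.26, adjusted p = 0.993 by limma), and the groups overlapped, with KO1 and KO3 above WT3. Aurka, the kinase that matures centrosomes and builds spindle poles, stood at 24.7, 37.1 and 25.0 FPKM in the WT-labelled libraries and 18.9, 17.9 and 23.8 FPKM in the KO-labelled ones. All its KO-labelled values lay below its WT-labelled values, and it had the smallest unadjusted p of the members, 0.102, in limma, with a log2 fold change of -0.49 (SE 0.26, adjusted p = 0.993). Cdk1, the catalytic kinase of mitotic entry, stood at 21.2, 24.5 and 18.5 FPKM against 17.5, 18.5 and 14.9 FPKM. Its groups also did not overlap, by less than 0.1 FPKM between WT3 and KO2. This rests on the authors' scaling. Set against library totals the groups of Cdk1 overlap, with 1555 of 16609477 reads in WT1 and 1665 of 16392098 in KO2. On the authors' scaling, of the 38 tested members Aurka and Cdk1 (2) were lower without overlap, where 2.08% of all tested genes were. None (0) were higher, where 1.45% were.

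The partners of Cdk1 did not share its order of libraries. Ccnb1, the main mitotic cyclin, stood at 13.8, 16.6 and 21.4 FPKM in WT1 to WT3 and 18.5, 24.1 and 12.5 FPKM in KO1 to KO3, highest in KO2, where Ccnb2 was lowest. Ccna2, the cyclin of S phase and early mitosis, ran only from 11.2 to 14.7 FPKM. Plk1, the polo kinase that acts at spindle poles, kinetochores and the midzone, stood at 8.88, 17.4 and 25.4 FPKM in the WT-labelled libraries, a 2.85-fold range within one label, and at 16.3, 18.9 and 10.1 FPKM in the KO-labelled ones. Aurkb, the kinase of the chromosomal passenger complex, ran from 6.88 to 11.1 FPKM. Of the phosphatases that activate Cdk1, Cdc25c ran from 5.36 to 13.6 FPKM and Cdc25b from 4.06 to 6.27 FPKM. Ccnb1, Plk1 and the other members not taken by the naming rule were chosen after their values were seen. In this group 8 of 9 log2 fold changes were negative, 7 of 9 with library totals as the scaling, and 0 were called.

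**Figure D2:**
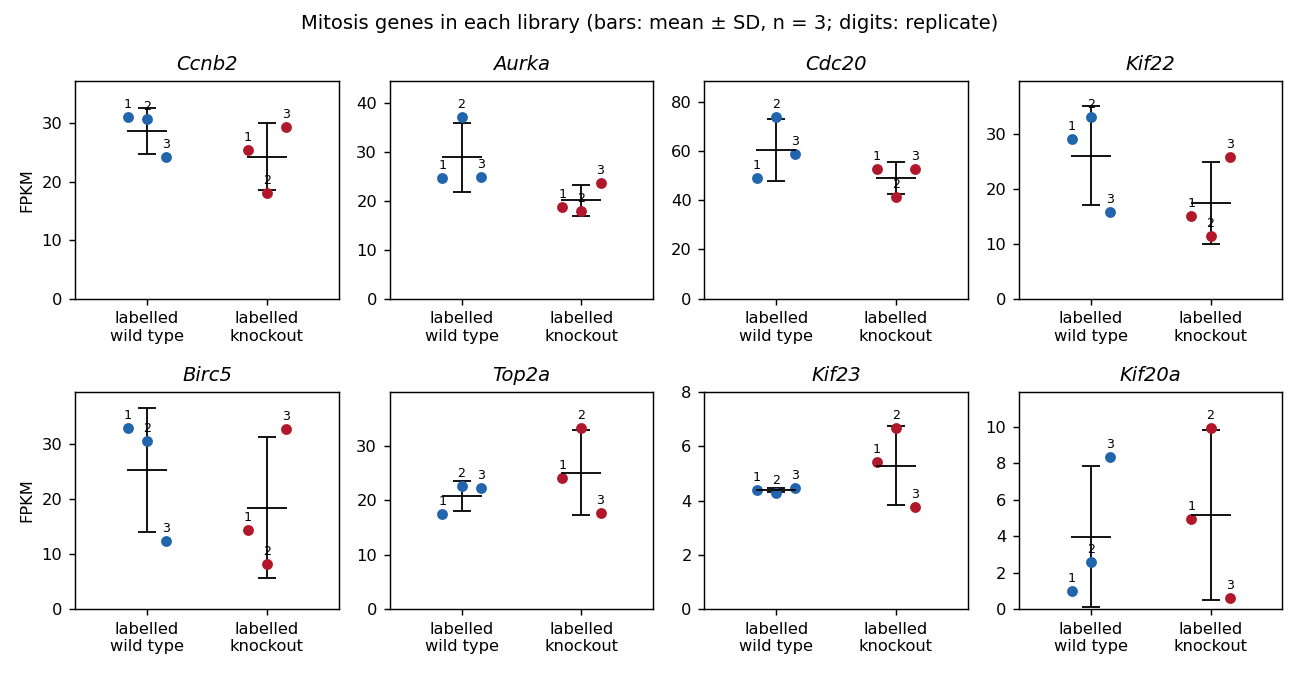
FPKM (y axis, from 0) of 8 mitosis genes in each library, with points numbered by replicate and black bars for the mean ± SD of 3 libraries. Aurka does not overlap between the labels, whereas Birc5 and Kif20a do. Birc5 and Kif20a differ more between replicates of either label than between the label means. Aurka also differs more between its WT-labelled replicates than between the label means.

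Checkpoint and anaphase genes held the 2 highest means. Cdc20, which activates the anaphase-promoting complex, stood at 48.9, 73.7 and 58.7 FPKM in the WT-labelled libraries and 52.7, 41.4 and 52.6 FPKM in the KO-labelled ones. The log2 fold change was -0.29 (SE 0.26, adjusted p = 0.993 by limma), with WT1 inside the KO-labelled range. Ube2c, the ubiquitin-conjugating enzyme of that complex, stood at 30.1, 43.4 and 31.6 FPKM against 29.1, 27.2 and 37.4 FPKM, with KO3 above WT1 and WT3. Bub3, which docks checkpoint kinases at kinetochores, stood at 27.6, 30.7 and 22.7 FPKM against 19.8, 15.8 and 25.9 FPKM, with a log2 fold change of -0.40 (SE 0.26). Pttg1 (securin), which holds separase inactive, stood at 42.9, 32.2 and 13.2 FPKM in WT1 to WT3 and 18.5, 12.3 and 43.5 FPKM in KO1 to KO3. Its highest and lowest libraries, 3.55-fold apart, both carried the KO label.

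Espl1, the separase that Pttg1 inhibits, was spread far less, from 2.98 to 5.53 FPKM, and was lowest in KO3, where Pttg1 was highest. Bub1 and Bub1b, the checkpoint kinases, were lowest in the same library: Bub1 stood at 3.92 FPKM in KO3 and 10.9 FPKM in KO2, and Bub1b at 10.3 and 17.2 FPKM. Ttk, which starts the checkpoint, ran from 3.12 to 4.45 FPKM, and Mad2l1, which binds Cdc20 in the checkpoint complex, from 3.62 to 6.30 FPKM. In this group 3 log2 fold changes were positive and 6 negative, with 0 called.

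Spindle genes included Kif22, a chromosome-arm kinesin, at 29.1, 33.0 and 15.8 FPKM in the WT-labelled libraries and 15.1, 11.4 and 25.8 FPKM in the KO-labelled ones. Its log2 fold change, -0.56 (SE 0.40, adjusted p = 0.993 by limma), was the most negative of the members, but WT3 stood close to KO1 and KO3 close to WT1. It was -0.31 without KO2, -0.36 without WT2, -0.87 without either WT3 or KO3 and -0.29 with the length covariate, none of them called. Without WT3 and KO3 together it was -1.18, with adjusted p = 0.0213 by limma. Kif2c, a kinesin that depolymerises microtubules at centromeres, stood at 14.4, 17.2 and 10.4 FPKM against 9.55, 7.85 and 11.9 FPKM, with a log2 fold change of -0.47 (SE 0.26) and an unadjusted p of 0.119 in limma. With 1 library left out it ran from -0.32 (without WT2) to -0.65 (without WT3), and it was -0.33 with the length covariate, none of them called. Without WT3 and KO3 together it was -0.79 (adjusted p = 0.0425 by limma). Tpx2, which activates Aurka on the spindle, stood at 13.3, 17.4 and 17.0 FPKM against 15.8, 16.8 and 14.1 FPKM, and all libraries lay within 1.31-fold. Nusap1, a microtubule-bundling protein, ran from 6.92 to 11.0 FPKM.

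Kif11, the kinesin that pushes spindle poles apart, was the member that did not pass the filter. It stood at 0.461, 0.1596 and 0.589 FPKM in the WT-labelled libraries and 0.987, 0.204 and 0.216 FPKM in the KO-labelled ones. The reads behind them numbered 33, 13 and 62 in the WT-labelled libraries and 89, 18 and 16 in the KO-labelled ones. Its level was thus far below that of every other member, of which Cenpf had the lowest mean.

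Centromere and chromosomal passenger genes were divided. The passenger complex joins Aurkb, Incenp, Birc5 (survivin) and Cdca8 (borealin), and corrects faulty attachments of chromosomes to the spindle. Birc5 stood at 32.9, 30.5 and 12.4 FPKM in WT1 to WT3 and 14.5, 8.22 and 32.7 FPKM in KO1 to KO3. It had nearly the same value in WT1 and KO3, and the log2 fold change of -0.52 had an SE of 0.57 (adjusted p = 0.993 by limma). The value depended on single libraries: it was -0.09 without KO2, -0.28 without WT1, -0.34 without WT2, -0.95 without WT3 and -1.02 without KO3, and -0.09 with the length covariate, none of them called. Without WT3 and KO3 together it was -1.45 (adjusted p = 0.0199 by limma). Cdca8 divided the libraries in the same way, at 17.8, 21.7 and 10.6 FPKM against 11.6, 8.36 and 21.2 FPKM. Incenp, the scaffold of the complex, was the steadiest of the tested members, at 18.1, 20.9 and 19.2 FPKM against 17.9, 16.5 and 19.5 FPKM, a 1.26-fold range.

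Cenpa, the histone that marks centromeres, followed Birc5 rather than Incenp, at 19.9, 21.1 and 9.72 FPKM in the WT-labelled libraries and 10.3, 7.96 and 20.5 FPKM in the KO-labelled ones. Cenpf, a large kinetochore protein, stood at 1.05, 1.47 and 1.73 FPKM against 1.99, 3.20 and 1.503 FPKM, with a log2 fold change of 0.39 (SE 0.26) and an unadjusted p of 0.171 in limma. Its groups overlapped through KO3. Cenpe, a kinetochore kinesin, ran from 3.91 to 6.86 FPKM.

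Chromosome structure genes all had positive log2 fold changes, 5 of 5, with 0 called, while 5628 of 12495 tested genes were positive. Top2a, the topoisomerase that untangles sister chromatids, stood at 17.5, 22.5 and 22.2 FPKM in the WT-labelled libraries and 24.2, 33.3 and 17.7 FPKM in the KO-labelled ones (log2 fold change 0.22, SE 0.28, adjusted p = 0.993 by limma). Knockout 2 was high and KO3 lay at the level of WT1. Mki67, the proliferation marker that coats mitotic chromosomes, stood at 11.3, 10.1 and 8.32 FPKM against 10.6, 17.6 and 13.0 FPKM, with a log2 fold change of 0.42 (SE 0.25) and an unadjusted p of 0.142 in limma. Its 2 highest libraries, KO2 and KO3, had the highest and the lowest mitochondrial read share, described below. The condensin subunits Smc2 and Smc4 pair with each other in every condensin complex. Smc4 stood at 10.7, 14.2 and 20.8 FPKM in the WT-labelled libraries and 19.1, 31.9 and 8.75 FPKM in the KO-labelled ones, and Smc2 at 2.96, 4.18 and 10.3 FPKM against 8.75, 16.1 and 2.15 FPKM. Both put the libraries in the same order, with KO2 highest and KO3 lowest. Ncapg, a condensin I subunit, ran from 3.59 to 7.47 FPKM with the same extremes.

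Cytokinesis genes also had 5 of 5 positive log2 fold changes with 0 called. Kif23, the centralspindlin kinesin, stood at 4.41, 4.30 and 4.46 FPKM in the WT-labelled libraries and 5.41, 6.67 and 3.78 FPKM in the KO-labelled ones, tight within the first label and 1.76-fold apart within the second (log2 fold change 0.20, SE 0.23, adjusted p = 0.993 by limma). Kif20a, which carries the passenger complex to the midzone, had the widest range of all tested members, 15.7-fold, at 1.03, 2.57 and 8.33 FPKM against 4.94, 9.93 and 0.633 FPKM. Its 95% interval ran from -1.73 to 2.16. Kif20a shares 29.2% of its exon bases in the GENCODE M21 annotation with Cdc23, on the opposite strand. Whether reads in the shared bases were told apart by strand was not tested, and the counter is not given. Reads of either gene may thus be part of the other's value. Cdc23, a subunit of the anaphase-promoting complex, stood at 1.28, 2.30 and 5.75 FPKM against 3.61, 5.95 and 1.18 FPKM, in the same order of libraries. Prc1, which bundles midzone microtubules, stood at 1.302, 2.68 and 5.82 FPKM against 5.25, 7.24 and 1.47 FPKM. Anln, an actin-binding scaffold of the contractile ring, ran from 1.14 to 5.84 FPKM, and Ect2, the exchange factor that switches on RhoA, from 2.38 to 8.58 FPKM.

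The libraries also differed in their mitochondrial reads. The share of reads from 13 mitochondrially encoded genes was 0.198%, 0.286% and 2.05% in WT1 to WT3, and 1.47%, 4.13% and 0.125% in KO1 to KO3. Of the 38 tested members, 13 (34.2%) stood higher in each of the 3 libraries of high share than in any of the 3 of low share, where 31.4% of all tested genes did. A further 10 (26.3%) stood lower without overlap, where 34.9% of all tested genes did. These shares lie near the background and are not read as a result about mitosis genes. This split of libraries was made after the data were seen and carries no test. It also depends on the scaling: with library totals 22 members (57.9%) stood higher and 6 (15.8%) lower, beside 43.3% and 24.6% of all tested genes. The part of sample quality in these differences was not tested.

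The role groups contained different numbers of each order, and the difference between groups was not tested. Of all tested genes 31.4% stood higher and 34.9% lower, or 43.3% and 24.6% with library totals. The role groups are too small for their shares to be set firmly against these. All 5 cytokinesis genes stood higher without overlap, under either scaling. On the authors' scaling Kif23 did so narrowly, at 4.46 FPKM in WT3 against 4.41 FPKM in WT1. Kif20a shares exon bases with Cdc23, as given above. In the centromere and passenger group 3 of 6 (Birc5, Cenpa and Cdca8) stood lower and 1, Cenpf, higher. Chromosome structure held 2 higher (Smc2 and Smc4) and 0 lower. Checkpoint and anaphase held 3 higher and 2 lower, kinases and cyclins 2 higher and 3 lower, and spindle genes 0 higher and 2 lower. With library totals these 3 groups held 5 higher and 1 lower, 4 higher and 1 lower, and 2 higher and 1 lower, so the balance turned for kinases and for spindle genes. Chromosome structure then held 4 higher and 0 lower, and the centromere and passenger group 2 higher and 3 lower. Over 703 pairs of tested members, the mean Pearson r of log2(FPKM + 1) across the 6 libraries was 0.10 and 53.5% of pairs were positive, beside a mean of 0.003 over pairs of all tested genes, given as a description since all pairs share the same libraries.

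**Figure D3:**
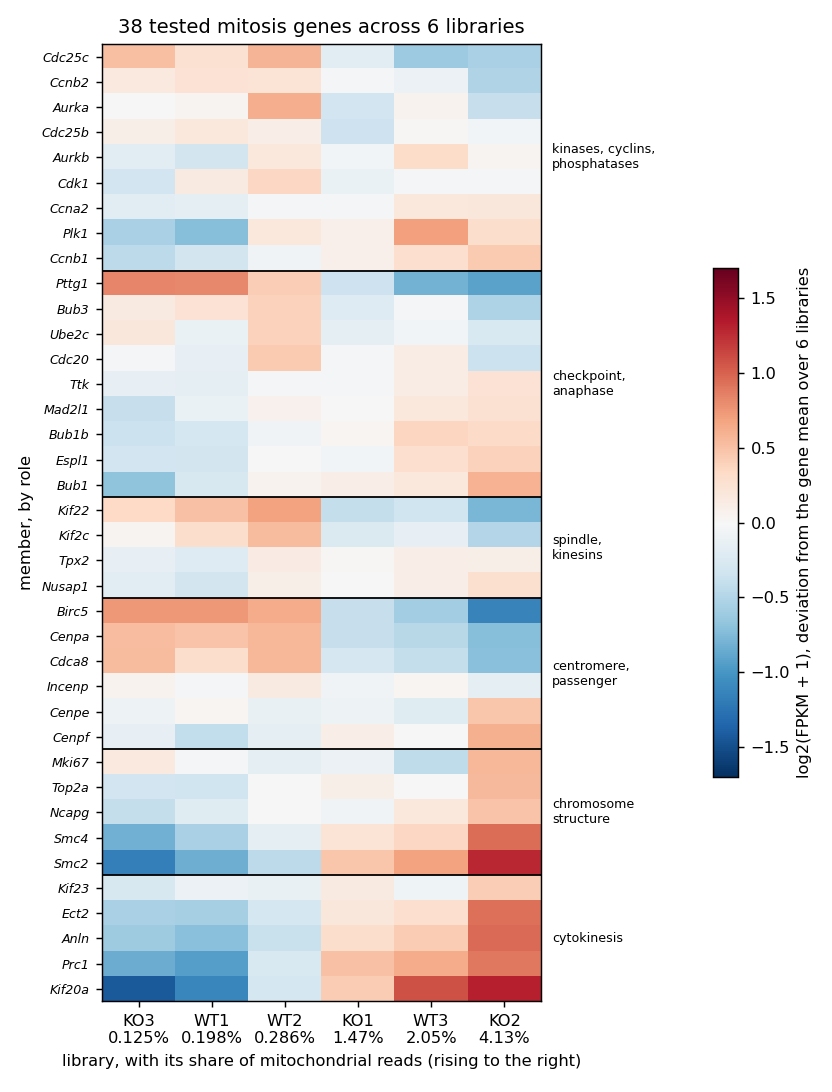
Deviation of log2(FPKM + 1) from each gene's mean over 6 libraries (colour) for the 38 tested mitosis genes (rows, by role), with libraries in order of their mitochondrial read share (columns). Cytokinesis genes are low on the left and high on the right, while Birc5, Cenpa, Cdca8 and Pttg1 show the opposite order.

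Members also differed by the length of their coding sequence, a feature the selection did not use. Between KO2 and KO3, which carry one label, the difference in log2(FPKM + 1) had a Spearman rho of 0.67 with coding length across the 38 members, beside 0.50 across 10660 tested genes with a coding transcript. Between WT3 and WT1 the values were 0.46 and 0.47. With the gene length behind the FPKM values, rho was lower in members than in all genes. It was 0.45 against 0.54 for KO2 minus KO3, and 0.18 against 0.49 for WT3 minus WT1. With transcript GC content, the rho for KO2 minus KO3 was -0.56 across members and -0.40 across all genes. For WT3 minus WT1 it was -0.29 and -0.24. These are descriptions across genes, which share the same libraries. Of the 19 members with a coding length below the median of 1920 bases, 8 stood higher in KO2 than in KO3 and 11 lower, with a median difference of -0.34. Of the 19 longer members, 16 stood higher and 3 lower, with a median of 0.72. Birc5 (420 bases), Cenpa (402 bases) and Pttg1 (597 bases) were among the shortest and Smc2 (3573 bases) among the longer. Mad2l1 was short in coding sequence alone (615 bases, with a gene length of 8390) and stood higher in KO2.

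**Figure D4:**
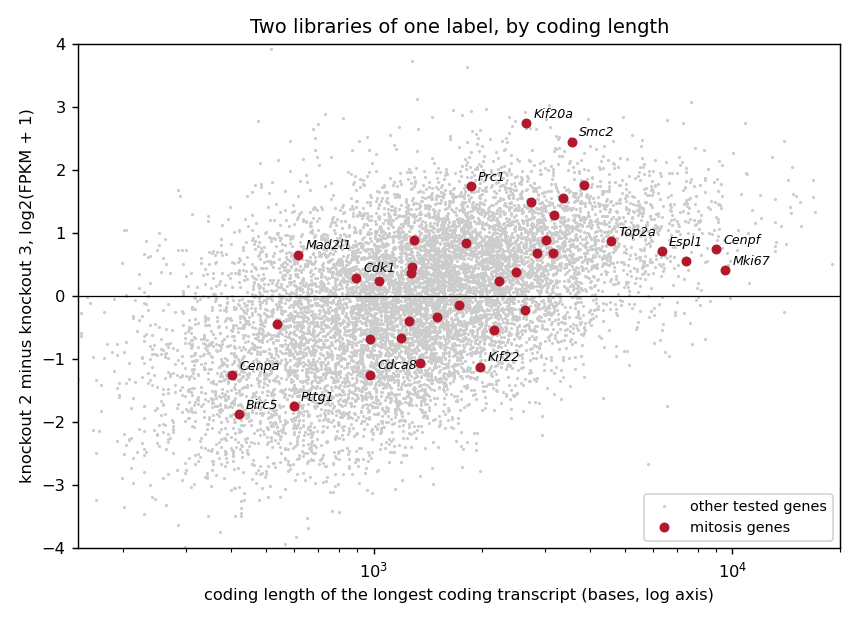
Difference in log2(FPKM + 1) between KO2 and KO3 (y axis) against coding length in bases (x axis, log scale) for 38 mitosis genes (red) and other tested genes (grey), with 21 genes outside the axes. Of the 19 members under 1920 bases, 11, such as Birc5, lie below 0 and 8 above it. Of the 19 longer members 16 lie above 0, within the cloud of all genes.

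Other genes of mitosis were taken from a list of 119, of which 118 were found and 112 tested. None was called by limma, 1 had an unadjusted p under 0.05, and limma-voom called 0. Of the 112, 54 were positive and 58 negative, with a median log2 fold change of 0.00 to 2 decimals. Nek7, a kinase of spindle assembly, had the smallest unadjusted p in limma, 0.0413, at 1.59, 2.61 and 4.52 FPKM in the WT-labelled libraries and 5.92, 7.65 and 4.15 FPKM in the KO-labelled ones. Its log2 fold change was 0.86 (adjusted p = 0.993 by limma), and 1.34 (adjusted p = 0.0198) without WT3 and KO3. Kif15, a spindle kinesin, followed with an unadjusted p of 0.124 in limma. Foxm1, a transcription factor of late cell cycle genes, ran from 3.39 to 8.24 FPKM, and Mybl2, which acts beside it, from 4.86 to 7.06 FPKM.

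Subunits of the anaphase-promoting complex and its partners stood lower without overlap in the libraries of high mitochondrial share in 12 of 17 genes (70.6%) and higher in 3 (17.6%). Of 15 genes of condensin, cohesin and their regulators 10 (66.7%) stood higher and 2 (13.3%) lower. Of 39 DNA replication genes 10 (25.6%) stood higher and 17 (43.6%) lower, and 0 were called between labels. Over all tested genes 31.4% stood higher and 34.9% lower, which moved to 43.3% and 24.6% with library totals. The lists were counted on the authors' scaling alone, and differences between them were not tested. The median range between highest and lowest library was 2.01-fold in the tested members, 1.78-fold in the replication genes and 2.32-fold in all tested genes.

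Oocytes also express many of these genes, and oocyte markers were present in every library. Of 16 oocyte markers found, 15 were tested, none was at 0 in all libraries, and their summed level was 374 to 663 FPKM in the WT-labelled libraries and 330 to 571 FPKM in the KO-labelled ones. Gdf9, an oocyte growth factor, ran from 53.8 to 140 FPKM. Of the 15, 11 (73.3%) stood lower without overlap in the libraries of high mitochondrial share and 3 higher, beside 34.9% and 31.4% of all tested genes. Of the 5 tested erythroid markers all 5 stood lower there, with sums of 613 to 4455 FPKM in the WT-labelled and 474 to 3513 FPKM in the KO-labelled libraries. Of the 6 tested surface epithelium markers 5 stood lower, with sums of 92.4 to 269 and 64.5 to 252 FPKM. Of the 12 granulosa markers 6 (50%) stood lower there and 1 (8.33%) higher, with sums of 6955 to 13067 and 5146 to 10094 FPKM. Of 13 stromal, pericyte and muscle markers 9 were tested. All 9 had positive log2 fold changes between labels, where 5628 of 12495 tested genes did, and 0 were called. Of the 9, 2 stood higher without overlap, where 1.45% of all tested genes did. Of the untested markers, Tagln had a lower mean under the KO label (0.327 against 0.599 FPKM), and Myh11, Rgs5 and Cspg4 had higher means. Sums over all 13 were 62.7 to 120 FPKM against 90.4 to 115 FPKM. Acta2 of smooth muscle gave the largest single part (27.2 to 83.2 FPKM). Endothelial markers summed to 12.1 to 22.1 against 21.3 to 25.9 FPKM, and leukocyte markers to 52.4 to 99.1 against 49.0 to 102 FPKM. The part of these cells in the members' values was not tested, and fewer dividing cells and less RNA per cell cannot be told apart in bulk samples.

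Kif2c and Cdc20 lie near the targeted gene. On mm10, Gm12840 spans chr4:117700188-117700923, Kif2c spans chr4:117159639-117182639, 517549 bp away, and Cdc20 spans chr4:118432901-118437352, 731978 bp away. Neither was called. Cdca8 and Smc2 are also on chromosome 4, at 7217542 and 65211928 bp. Exon bases were shared with another annotated gene in 13 of 39 members. The share was above 10% of the member's exon bases in 6 of them (Kif20a, Ube2c, Ncapg, Cdc25c, Ccna2 and Prc1). These are GENCODE M21 exon bases, which exceed the lengths behind the FPKM values for Kif20a (4315 against 3796) and Cdc25c (4915 against 1941). Tnnc2, which shares 22.8% of the exon bases of Ube2c, stood at no more than 0.115 FPKM. Exosc9, which shares 12.5% of those of Ccna2, stood at 3.61 to 6.87 FPKM, so the values of Ccna2 are less sure. Lcorl (13.4% of Ncapg) ran from 0.407 to 1.89 FPKM and Rccd1 (11.1% of Prc1) from 0.718 to 0.921 FPKM. Gm3550 (12.7% of Cdc25c) stood at no more than 0.330 FPKM.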

How the data were processed

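Granulosa cell RNA of 6 libraries was sequenced after preparation with a TruSeq kit, per the labels' protocols. The authors deposited FPKM values, 1 table per library. Reads were aligned with HISAT2 2.0.5 to mm10, per the submitters' processing notes. Which counter, annotation release and scaling were used is not given in the sources used here. FPKM times length gave whole reads in 100% of values above 0, within 0.01 reads, and the totals behind the authors' scaling followed size factors from medians of ratios. Depth was 16392098 to 19465847 reads.

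Groups came from the sample labels. limma 3.58.1 (R 4.3.3, trended prior variance, genotype as the only term) was fitted to log2(FPKM + 1) of 12495 genes with FPKM above 1 in at least 3 libraries, with two-sided p-values adjusted by Benjamini-Hochberg and a threshold of 0.05. Fold changes on this scale understate those of low genes. The fit was also run on simulated counts. These lacked the wide differences between libraries of one label seen here, so that run does not show which differences could be found in these data. Members and gene lists were chosen with earlier results of these data known. Values per library were given for the 2 most abundant members of each of 6 role groups, the 5 with the smallest p and those without overlap. Fold changes were given for the 5 and for the most abundant of each group, and for the other mitotic genes the 2 with the smallest p were named. Coding length and GC content came from the GENCODE M21 transcript with the longest coding sequence, and promoters from RefSeq. Alternatives were another pseudocount (0.1), no filter, library totals, limma-voom, the replicate block, a length covariate and left-out libraries. Figures were drawn with matplotlib 3.10.9.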

Additional observations from a re-analysis of the deposited data

How the results depend on the processing

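No member and no other mitotic gene was called with a pseudocount of 0.1, without the filter, with library totals, limma-voom, the replicate block (0 members, 0 other mitotic genes and 0 of all genes), the length covariate or any 1 library left out. The 11 members given with a fold change, its SE and p, and Nek7 and Kif15, kept their sign in each alternative run. The other members were not followed one by one through every alternative, and Tpx2, at -0.02, was 0.09 without WT3 and KO3. Without WT3 and KO3, limma called 13 members, 35 other mitotic genes and 3451 of all genes, and the members' median log2 fold change was 0.19. The remaining libraries differ by label and by mitochondrial read share alike, so these cannot be told apart there. With the length covariate limma called 1 of all genes, and the cause was not tested. The members' median log2 fold change, -0.01, was 0.07 with library totals and -0.10 with the length covariate, with a range of -0.14 to 0.10 over the fits that each omit 1 library. Same-numbered libraries had deviations correlated at -0.42, -0.67 and -0.89. For 0 of 6 libraries was the closest partner the one of its own number, so the numbers gave no pairing. Depth limits Kif11, at 13 to 89 reads, more than the other members, which had at least 37 reads in each library.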

Other observations

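Genes that hold cells in G1 or let them pass were measured beside the mitosis genes. Of 23 G1 cyclins, kinases, inhibitors and E2F or RB family genes, 20 were tested and limma called 0, with 0 at an unadjusted p under 0.05. Cdkn1a, the inhibitor p21, stood at 31.0, 55.4 and 60.5 FPKM in WT1 to WT3 and 56.8, 43.7 and 44.6 FPKM in KO1 to KO3. Cdkn1b, the inhibitor p27, stood at 8.86, 13.5 and 19.2 FPKM against 17.0, 19.2 and 10.6 FPKM. Ccnd2, the D-type cyclin of granulosa cells, ran from 5.07 FPKM in KO3 to 15.4 FPKM in KO2.

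Among small partners of mitotic kinases, Cks2 ran from 106 to 203 FPKM and Cks1b from 59.8 to 128 FPKM, and all values of both stood above those of every member but Cdc20. Stmn1, which destabilises microtubules, stood at 335, 278 and 97.1 FPKM in the WT-labelled libraries and 136, 67.7 and 391 FPKM in the KO-labelled ones, with the highest and lowest values both under the KO label. Copies of 2 cyclin genes were detected at low levels, with Ccnb1-ps at 0.680 to 1.46 FPKM and Ccnb2-ps at 0.905 to 1.07 FPKM. Reads shared with such copies make the values of Ccnb1 and Ccnb2 uncertain by an amount that was not measured. Kif22-ps had 0 reads in every library.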
